A study of Mus musculus with 6 samples.

Results

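Imprinted genes are read mainly from the allele inherited from one parent. The 45 genes described here are imprinted mouse genes outside the Dlk1-Dio3 domain. They were taken as a fixed list of names, and each was matched to its Ensembl gene among the 56393 genes of the count table. They lie in 20 loci on 10 chromosomes, none of them on X or Y. Of the 45, 22 are known in mouse for expression from the paternal allele and 9 for expression from the maternal allele. The other 14 are imprinted only in some tissues, such as placenta or brain, or only for some transcript isoforms. Expression was measured by RNA sequencing of primary mouse cells that the labels call VSMC, vascular smooth muscle cells, which form the contractile layer of vessels. There were 3 libraries of cells knocked out for Nono (KO) and 3 of wild-type cells (WT), and both groups grew in medium with serum and received no further treatment. Nono encodes a protein of paraspeckles, nuclear bodies that bind RNA. The labels give no strain, sex, age or method of knockout, and leave unsaid if the replicates came from different cultures or animals. The p-values therefore reflect the spread between these libraries alone, which may be technical.

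An imprint is a mark of DNA methylation set in the egg or the sperm at a control region and kept through the divisions of the embryo. A control region often governs several neighbouring genes, some directly at a methylated promoter and others through a long noncoding RNA or an insulator. Many paternally expressed genes promote growth and several maternally expressed ones restrain it. The deposited counts do not separate the parental alleles, so the allele given for each gene is background and was not measured here.

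The libraries held 57295800 to 61670083 counts in KO and 56529170 to 60864603 in WT. Nono itself was at 55.9, 54.8 and 51.1 CPM (counts scaled to a common library size with TMM factors) in KO and at 523, 502 and 519 CPM in WT. The libraries of both genotypes went partly against the cell label. Myh11, the smooth muscle myosin heavy chain, lay at 0.733 CPM or less in every library, and Myocd, a coactivator of smooth muscle genes, had 0 counts in KO and 0.222 to 0.633 CPM in WT. The markers Acta2, Tagln, Smtn, Lmod1, Des and Synpo2 were counted in every library. Cnn1 had 0 counts in WT replicates 1 and 2, and Actg2 had 0 in WT replicate 2. The smooth muscle actin gene Acta2 averaged 161 CPM in KO and 16.4 CPM in WT, and Tagln was 17.5-fold higher in KO. Des and Synpo2 were lower in KO, as was Myocd. All 10 smooth muscle markers were tested, 6 of them higher and 3 lower in KO, beside 35.1% and 34.2% of all tested genes. Their summed level was 246 to 251 CPM in KO and 68.2 to 78.2 CPM in WT. Of 8 fibroblast markers 6 were higher and 1 lower in KO, again beside 35.1% and 34.2% of all tested genes. They summed to 10672 to 11549.5 CPM in KO and 991.5 to 1135 CPM in WT. Of 8 trophoblast markers, Gcm1, Elf5, Eomes, Hand1 and Prl3d1 had 0 counts in all libraries. Of 8 neuronal and glial markers, Tubb3 and S100b were higher and Mbp and Syt1 lower in KO. Rbfox3 and Snap25 had 0 counts in KO and only 6 and 5 in WT, and did not pass the filter on low counts. The 8 markers summed to 50.5 to 66.0 CPM in KO and 68.9 to 73.0 CPM in WT. The trophoblast list summed to 239 to 256 CPM in KO and 0.602 to 0.922 CPM in WT, nearly all of it Prl2c2. The 8 mesothelial and epithelial markers summed to 9.87 to 13.4 CPM in KO and 77.0 to 84.8 CPM in WT. Of these, 4 were tested, with Wt1 and Cdh1 higher and Msln and Krt19 lower in KO, beside the same shares of all tested genes. The part of these markers in the results below was not tested. Transcripts of 4 Y-linked genes summed to 149.9 to 163 CPM in KO and to 0 to 0.0795 CPM in WT, so that Y-linked transcripts separate the same libraries as genotype. A difference between KO and WT below cannot be told apart from a difference between the sources of these cells. In bulk RNA, fewer cells that express a gene and less RNA per cell also cannot be told apart.

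Of the 45 imprinted genes, 36 passed the filter on low counts and were tested, 22 of them higher and 8 lower in KO at an adjusted p under 0.05 (edgeR quasi-likelihood test, Benjamini-Hochberg adjustment over 18732 genes). Among all tested genes 69.3% were called, 35.1% higher and 34.2% lower in KO. By parental allele, 14 of 18 tested paternally expressed genes were higher and 2 lower. Of 6 tested maternally expressed genes, 3 were higher and 1 lower. Of 12 tested genes of the third class, 5 were higher and 5 lower. A gene that passes the filter only through the group where it is high had to differ, so these counts describe the tested genes and not the whole list. The median log2 fold change of KO over WT was 2.70 over the tested paternal genes, 1.08 over the maternal ones and -0.03 over the third class, beside 0.03 over all tested genes. Placing genes at 0 counts in 1 group at their bound left these medians the same, but it could not have moved the class medians. Such genes lay above the middle of the paternal class either way, and the tested genes of the other classes held none. Scaling by total counts moved the median over all tested genes to -0.10 and left the 22 higher and 8 lower calls among the imprinted genes in number.

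A group of 8 paternally expressed genes had 0 counts in all WT libraries and were called higher in KO, against 2.29% of all tested genes that did so. They were Peg3, Ndn, Peg12, Snrpn, Peg10, Sgce, Plagl1 and Rasgrf1, from 5 loci and 4 chromosomes. No tested imprinted gene showed the opposite, 0 counts in all KO libraries and a call lower in KO, which 1.50% of all tested genes did. At so small a share, finding none among so few genes says little. Zdbf2, with 0 counts in KO and 10 in WT, did not pass the filter and could not be called. With a change of at least 2-fold also asked for, 17 imprinted genes were called higher and 2 lower, against 21.6% and 19.8% of all tested genes. The other 6 paternal genes that rose were counted in WT. The plot of levels by library shows both kinds.

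**Figure D1:**
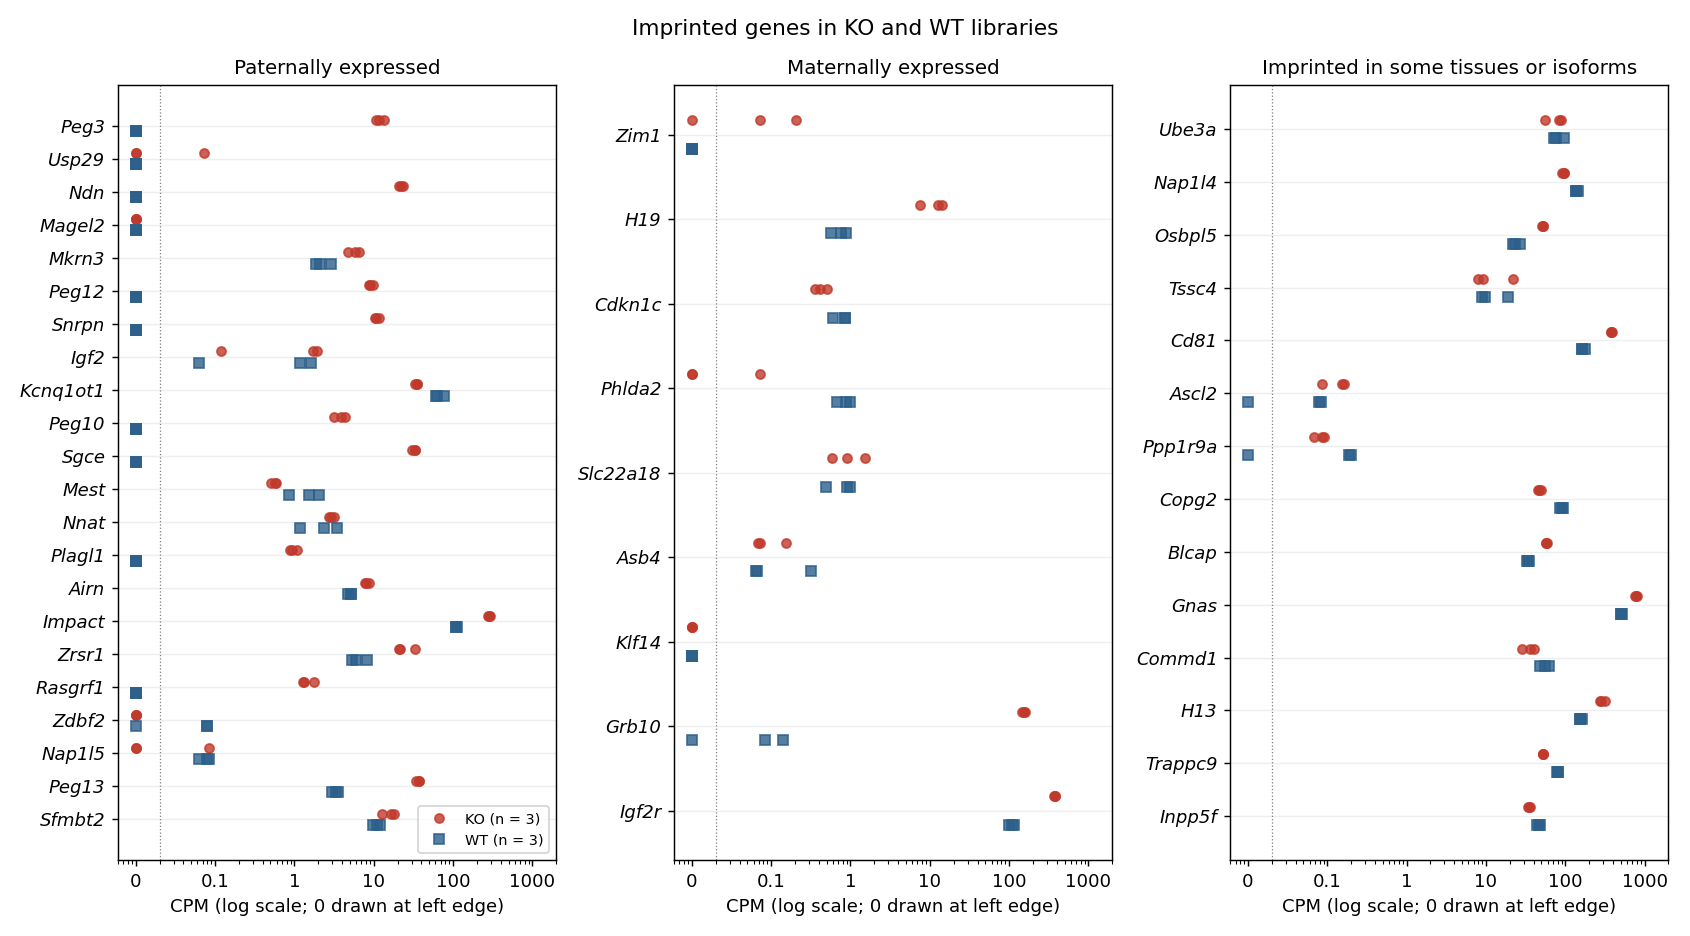
Level of each of the 45 imprinted genes in CPM on a log scale, with 1 red circle per KO library and 1 blue square per WT library (n = 3 each) and 0 drawn at the left edge, in panels by parental allele. For Peg3, Ndn, Peg12, Snrpn, Peg10, Sgce, Plagl1 and Rasgrf1 the WT squares all sit at 0, while the KO circles sit between 0.882 and 33.4 CPM.

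In the Prader-Willi and Angelman domain of chromosome 7, the listed paternal genes that were counted in KO were at 0 in WT with the exception of Mkrn3. Ndn, which encodes necdin, a growth-suppressing protein of the MAGE family, was at 20.6, 23.7 and 22.0 CPM in the KO libraries and had 0 counts in each WT library. Taking 3 counts over all WT libraries as the floor (0.0161 CPM), Ndn was at least 1372-fold higher (edgeR adjusted p = 1.34e-07). Peg12, a relative of the Frat proteins that bind the kinase GSK3, was at 9.08, 9.91 and 8.60 CPM in KO, against 0 counts in WT, at least 570.3-fold higher (edgeR adjusted p = 6.82e-07). Both genes are thus clearly counted in each KO library and in no WT library. Snrpn, which encodes the splicing protein SmN, was at 10.5, 10.6 and 11.8 CPM in KO, against 0 counts in WT, at least 678-fold higher (edgeR adjusted p = 4.69e-07). A second annotated gene, Gm38393, shares exons with Snrpn on the same strand and had 1235 counts in KO and 0 in WT. With its counts added, Snrpn was at 18.1 ± 0.81 CPM in KO (SD, n = 3) and at 0 in WT, at least 1121-fold higher. The choice between the 2 annotated genes does not touch the WT value.

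Mkrn3, a makorin RING finger gene of the same cluster, was the exception. It was at 4.81, 6.43 and 5.87 CPM in KO and at 2.09, 1.87 and 2.86 CPM in WT. The groups did not overlap and the difference was 2.51-fold (edgeR log2 fold change 1.33, SE 0.22, adjusted p = 0.000742). Magel2, another MAGE family gene that lies between Ndn and Mkrn3, had 0 counts in all 6 libraries. Ube3a, the ubiquitin ligase lost in Angelman syndrome, is maternally expressed in neurons and read from both alleles elsewhere. It was at 82.5, 55.3 and 87.5 CPM in KO and at 71.5, 77.0 and 96.5 CPM in WT, with groups that overlapped (edgeR log2 fold change -0.12, SE 0.20, adjusted p = 0.61), and the sign turned in 2 alternatives. Snhg14, the antisense transcript that runs over Ube3a, was at 11.2, 8.87 and 11.2 CPM in KO and at 0.903, 0.217 and 1.14 CPM in WT (edgeR adjusted p = 0.000384). The 2 genes share exonic bases on opposite strands and the strand setting of the counting is not stated, so their reads may not be separable.

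**Figure D2:**
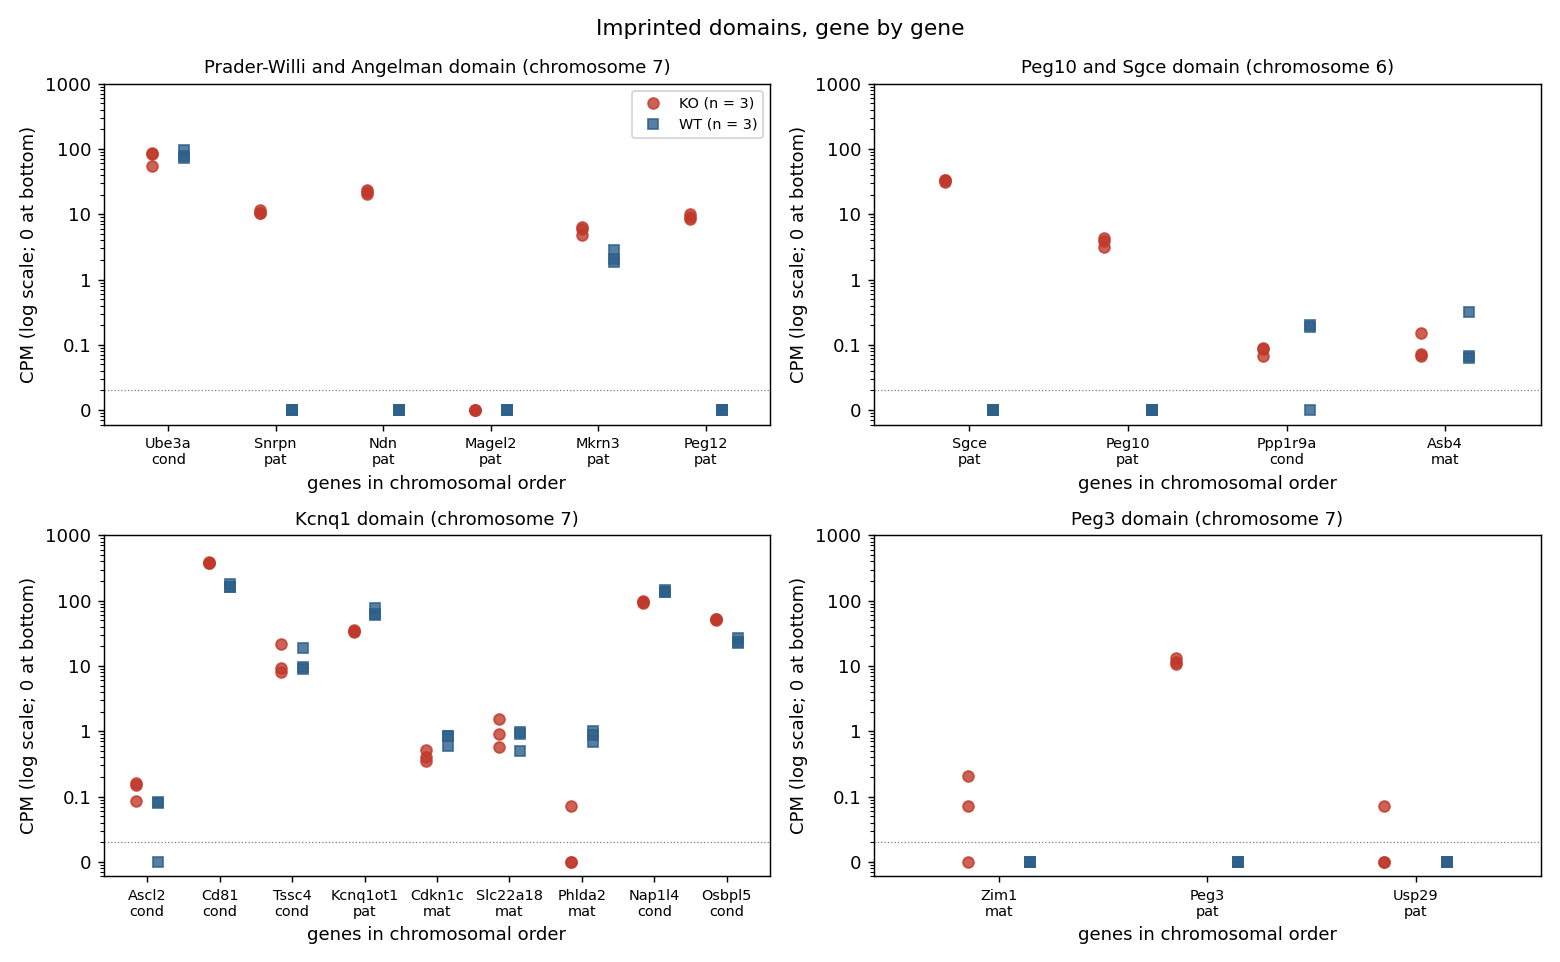
Level in CPM on a log scale of the listed genes of 4 imprinted domains, in chromosomal order, with red circles for KO and blue squares for WT libraries (n = 3 each), 0 drawn at the bottom, and the allele class under each name (pat, paternal; mat, maternal; cond, some tissues or isoforms). In the Prader-Willi and Angelman domain Snrpn, Ndn and Peg12 are at 0 in WT, while Mkrn3 is at 1.87 to 2.86 CPM there and Ube3a at 71.5 to 96.5 CPM.

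In the Peg3 domain, also on chromosome 7, Peg3 was counted in KO alone. Peg3, a large zinc finger protein, was at 10.7, 13.4 and 11.7 CPM in KO and had 0 counts in each WT library, at least 739.7-fold higher (edgeR adjusted p = 5.73e-07). Usp29, a deubiquitinase gene that starts beside Peg3 and runs the other way, had 4 counts in KO, all in replicate 2, and 0 in WT. Zim1, a maternally expressed zinc finger gene next to Peg3, had 0, 4 and 12 counts in KO and 0 in WT. Usp29 and Zim1 did not pass the filter, and no change can be read for either at this depth. The start sites of Peg3 and Usp29 in RefSeq lie 164 bases apart and their promoter windows overlap by 263 bases, yet Usp29 stayed near 0 in the libraries where Peg3 was counted.

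RefSeq start-site windows (build GRCm38.p6; 250 bases before to 50 after the start) were found for 36 of the 45 genes. The count table was made on another build, so the coordinates below belong to the windows alone. The windows of 5 genes at or near 0 in WT are shown beside that of Mkrn3, which kept counts in WT, because these genes carry the pattern above. Capitals mark CpG dinucleotides, the sites at which imprints are methylated, and each window is written 5′ to 3′ on the strand of its gene.
Peg3, chr7:6730370-6730669, minus strand: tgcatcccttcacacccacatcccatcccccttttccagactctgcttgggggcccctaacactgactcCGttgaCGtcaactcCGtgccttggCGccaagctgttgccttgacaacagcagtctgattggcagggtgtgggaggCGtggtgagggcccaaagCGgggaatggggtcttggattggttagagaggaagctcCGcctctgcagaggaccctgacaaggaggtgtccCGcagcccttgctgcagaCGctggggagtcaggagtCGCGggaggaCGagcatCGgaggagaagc
Ndn, chr7:62348027-62348326, plus strand: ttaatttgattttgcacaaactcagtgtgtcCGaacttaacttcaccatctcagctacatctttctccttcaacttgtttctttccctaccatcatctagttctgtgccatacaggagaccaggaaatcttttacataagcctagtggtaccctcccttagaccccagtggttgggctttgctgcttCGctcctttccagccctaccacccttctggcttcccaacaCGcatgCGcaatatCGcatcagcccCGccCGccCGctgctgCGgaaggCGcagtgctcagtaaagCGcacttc
Peg12, chr7:62464461-62464760, minus strand: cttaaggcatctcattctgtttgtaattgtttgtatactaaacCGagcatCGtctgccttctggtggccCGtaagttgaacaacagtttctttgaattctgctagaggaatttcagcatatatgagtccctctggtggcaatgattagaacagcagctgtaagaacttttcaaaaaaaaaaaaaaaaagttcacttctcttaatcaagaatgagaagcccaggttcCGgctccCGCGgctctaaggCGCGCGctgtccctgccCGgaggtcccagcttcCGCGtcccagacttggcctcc
Mkrn3, chr7:62420104-62420403, minus strand: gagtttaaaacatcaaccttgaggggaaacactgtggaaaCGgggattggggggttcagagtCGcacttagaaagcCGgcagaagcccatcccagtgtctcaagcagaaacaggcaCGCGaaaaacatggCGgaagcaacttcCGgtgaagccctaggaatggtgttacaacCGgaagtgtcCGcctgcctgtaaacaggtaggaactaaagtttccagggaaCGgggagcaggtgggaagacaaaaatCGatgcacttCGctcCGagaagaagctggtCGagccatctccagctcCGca
Plagl1, chr10:13090582-13090881, plus strand: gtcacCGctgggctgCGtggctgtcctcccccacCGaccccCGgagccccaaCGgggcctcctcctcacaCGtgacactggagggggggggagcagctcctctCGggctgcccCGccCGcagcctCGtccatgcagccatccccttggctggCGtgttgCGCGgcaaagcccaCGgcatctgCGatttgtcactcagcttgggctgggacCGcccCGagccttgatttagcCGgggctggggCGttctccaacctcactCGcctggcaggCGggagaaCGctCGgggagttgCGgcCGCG
Grb10, chr11:12037371-12037670, minus strand: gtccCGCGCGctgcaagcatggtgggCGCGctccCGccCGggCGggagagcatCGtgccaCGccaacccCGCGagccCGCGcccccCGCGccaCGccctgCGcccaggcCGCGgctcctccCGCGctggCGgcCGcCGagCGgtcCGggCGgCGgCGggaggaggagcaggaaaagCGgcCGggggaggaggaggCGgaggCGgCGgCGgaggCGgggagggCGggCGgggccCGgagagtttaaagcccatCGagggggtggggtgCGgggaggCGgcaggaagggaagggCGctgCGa
The number of CpG was 13 in the window of Peg3, 11 in that of Ndn, 12 in that of Peg12 and 15 in that of Mkrn3. It was 26 in the window of Plagl1, and 45 in the Grb10 window shown and 9 in the other. Of further genes at 0 in WT, Rasgrf1 had 26 in its window and Snrpn had 2, 3, 4 and 7 in its 4 windows, so these genes lay on both sides of the median of all windows. Over all 32851 windows the median was 7 and the quartiles were 3 and 20. Mkrn3, with counts in WT, thus had a number of CpG close to those of its neighbours Ndn and Peg12, which had none. The letters TGCCGC, the core known to be bound by the imprint-protecting zinc finger protein ZFP57 when methylated, were sought on both strands. They occurred in 13 of 55 windows of the imprinted genes (23.6%) and in 11.6% of all windows. The letters themselves hold a CpG, and the median number of CpG was 16 in the windows of the imprinted genes and 7 in all windows. Some genes are also counted with several windows, so the 2 shares are not directly comparable. They were found in the windows of Plagl1 and Grb10 and not in those of Peg3, Ndn, Peg12 or Mkrn3. The match is a description of letters, and methylation and binding were not measured.

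On chromosome 6 the divergent genes Peg10 and Sgce, which share a promoter region, were both counted in KO alone. Sgce, which encodes epsilon-sarcoglycan of the dystrophin-linked membrane complex, was at 30.7, 33.3 and 33.4 CPM in KO, against 0 counts in WT, at least 2014-fold higher (edgeR adjusted p = 5.81e-08). Peg10, a gene derived from a retrotransposon and needed for the placenta, was at 3.92, 4.38 and 3.17 CPM in KO, against 0 counts in WT, at least 237-fold higher (edgeR adjusted p = 7.22e-06). Per length, Sgce was the higher of the pair in KO, at 16.9 ± 0.81 FPKM against 0.485 ± 0.079 FPKM for Peg10 (SD, n = 3). The other listed genes of this region did not pass the filter. Asb4, maternally expressed, had 17 counts in KO and 28 in WT, and Ppp1r9a, which encodes neurabin, had 14 in KO and 24 in WT.

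The genes Plagl1, on chromosome 10, and Rasgrf1, on chromosome 9, were low in KO and at 0 in WT. Plagl1, also called Zac1, a zinc finger transcription factor that acts on other imprinted genes, was at 0.920, 1.09 and 0.882 CPM in KO, against 0 counts in WT, at least 59.8-fold higher (edgeR adjusted p = 0.000141). Rasgrf1, an exchange factor that activates Ras, was at 1.31, 1.27 and 1.76 CPM in KO, against 0 counts in WT, at least 89.9-fold higher (edgeR adjusted p = 6.01e-05). Both lay far below Peg3 in KO, so their bounds are correspondingly lower.

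Of 10 tested paternal genes that were counted in WT, 6 rose, 2 fell and 2 were not called. Peg13, a noncoding RNA read from an intron of Trappc9 on chromosome 15, was at 37.3, 37.1 and 33.6 CPM in KO and at 3.37, 2.97 and 3.58 CPM in WT. The groups were far apart, with a 10.9-fold difference (edgeR log2 fold change 3.44, SE 0.11, adjusted p = 3.82e-08). Its host Trappc9, a subunit of a vesicle tethering complex, went the other way, at 52.6 ± 0.10 CPM in KO and 80.4 ± 1.08 CPM in WT (SD, n = 3 each; edgeR adjusted p = 7.95e-06). The 2 genes lie on the same strand without shared exons. Zrsr1, a splicing factor gene copied by retrotransposition into an intron of Commd1 on chromosome 11, was at 20.7, 21.4 and 33.5 CPM in KO and at 5.92, 8.27 and 5.29 CPM in WT. All KO libraries were above all WT libraries, and KO replicate 3 was the highest (3.88-fold, edgeR log2 fold change 1.96, SE 0.24, adjusted p = 0.000191). Zrsr1 and Commd1 share exonic bases on opposite strands, so their reads may not be separable either.

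Impact, on chromosome 18, inhibits the amino acid sensor kinase GCN2. It was at 287, 277 and 292 CPM in KO and at 113, 110.5 and 110.4 CPM in WT, which do not overlap (2.56-fold, edgeR log2 fold change 1.36, SE 0.04, adjusted p = 3.11e-08). Sfmbt2, a polycomb group gene on chromosome 2, was at 15.6 ± 2.72 CPM in KO and 10.9 ± 1.11 CPM in WT (edgeR adjusted p = 0.0142). The call of Sfmbt2 was lost without KO replicate 3 (adjusted p = 0.0535) and from the deposited FPKM (limma adjusted p = 0.672), so it rests on the choice of unit and on that library.

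Of the paternal genes, 2 fell. Kcnq1ot1, the noncoding RNA that silences its neighbours on the paternal chromosome, was at 34.4 ± 0.79 CPM in KO and 67.1 ± 9.07 CPM in WT (SD, n = 3 each; edgeR log2 fold change -0.96, SE 0.10, adjusted p = 3.19e-05). Mest, which encodes a protein of the hydrolase fold and lies on chromosome 6, was at 0.562, 0.582 and 0.509 CPM in KO and at 2.03, 1.55 and 0.858 CPM in WT. Its KO values were close together and its WT values spread, without overlap (2.68-fold lower, edgeR log2 fold change -1.42, SE 0.38, adjusted p = 0.0104). Copg2, a coatomer subunit whose end overlaps that of Mest on the other strand, was also lower, at 47.3 ± 2.44 CPM in KO and 90.5 ± 3.91 CPM in WT (edgeR adjusted p = 2.46e-06). Mest and Copg2 share exonic bases and the strand setting of the counting is not stated, so reads of Copg2 may be counted for Mest. Klf14, the maternally expressed transcription factor gene of that region, had 0 counts in all 6 libraries.

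**Figure D3:**
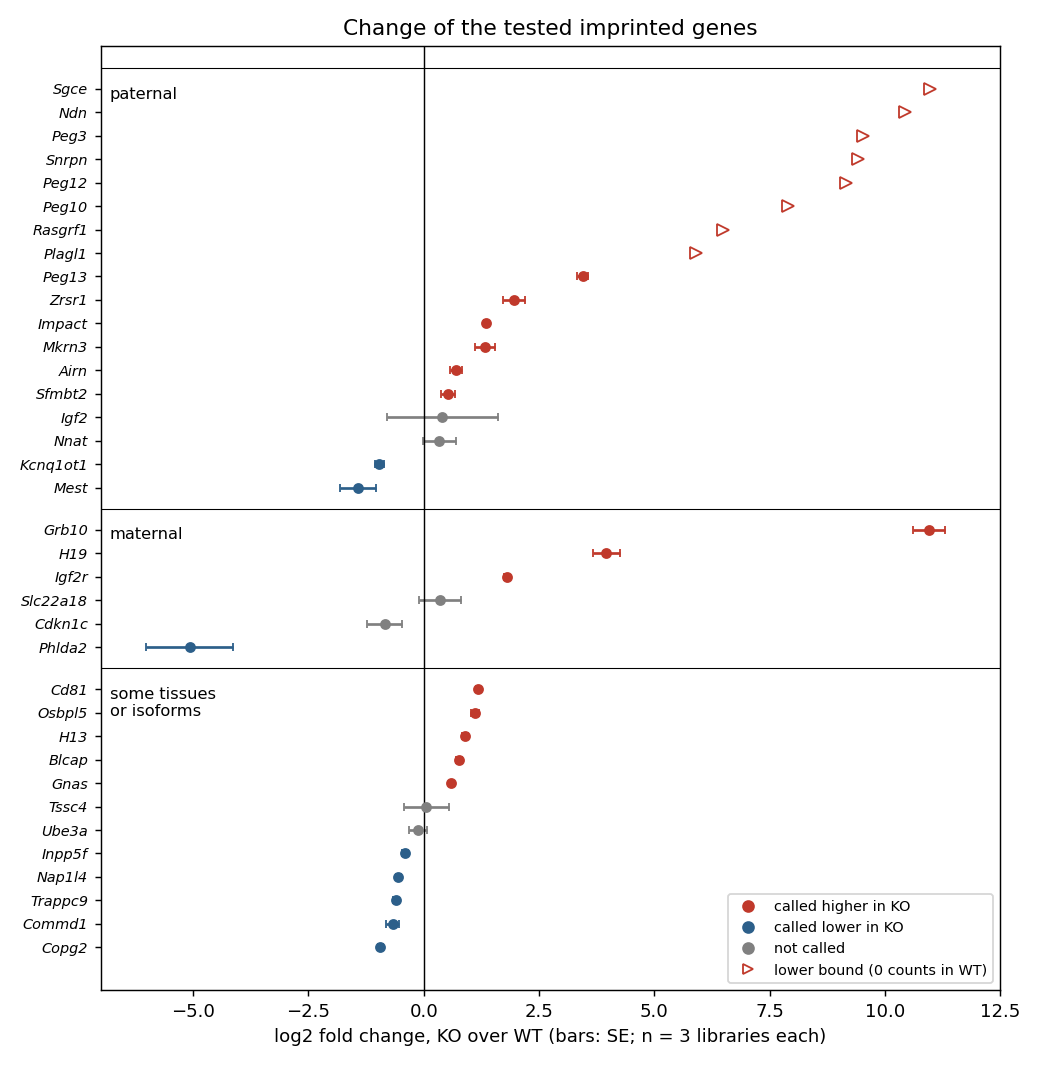
Log2 fold change of KO over WT with SE for the 36 tested imprinted genes (n = 3 libraries each), in panels by parental allele. Red marks genes called higher, blue those called lower and grey those not called, and open triangles are lower bounds for genes with 0 counts in WT. The largest bound is that of Sgce, and the maternal gene Phlda2 lies farthest to the left, at -5.07.

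Maternally expressed genes moved in both directions, and Grb10 had the widest gap. Grb10, an adaptor that dampens signalling of the insulin and IGF1 receptors, lies on chromosome 11. It was at 158, 155 and 147 CPM in KO and at 0.143, 0.0833 and 0 CPM in WT. With 26427 counts in KO and 14 in WT, the difference was 1980-fold in the fit (edgeR log2 fold change 10.95, SE 0.35, adjusted p = 4.01e-07). Without WT replicate 1, which held most of the WT counts, the log2 fold change was 11.81.

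Igf2r, on chromosome 17, encodes the receptor that carries IGF2 to the lysosome. It was at 382, 382 and 365 CPM in KO and at 101, 115 and 108 CPM in WT, a 3.48-fold difference without overlap (edgeR log2 fold change 1.80, SE 0.06, adjusted p = 3.7e-08). Airn, the paternal noncoding RNA that silences Igf2r on its own chromosome, was higher as well, at 8.13 ± 0.45 CPM in KO and 4.98 ± 0.24 CPM in WT (edgeR adjusted p = 0.00121). Both genes of this opposed pair thus rose. Airn starts within an Igf2r intron on the other strand, and intronic reads of Igf2r may be counted for Airn.

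In the H19 and Igf2 domain H19 rose and Igf2 could not be called. H19, a maternally expressed noncoding RNA, was at 12.6, 14.1 and 7.60 CPM in KO and at 0.570, 0.750 and 0.874 CPM in WT. All KO libraries were above all WT libraries (15.6-fold, edgeR log2 fold change 3.96, SE 0.29, adjusted p = 4.56e-06). Igf2, the paternally expressed growth factor, had 114, 95 and 7 counts in KO and 4, 97 and 74 in WT, or 1.94, 1.73 and 0.119 CPM in KO and 0.0634, 1.62 and 1.18 CPM in WT. One library in each genotype was near 0, and the groups overlapped (edgeR log2 fold change 0.41, SE 1.20, adjusted p = 0.78).

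Those low values went with counts of another annotated gene. Gm49394 overlaps Igf2 on the same strand with shared exons and had 0, 0 and 162 counts in KO and 60, 0 and 0 in WT, which is high in the libraries where Igf2 was low. Summed over both genes, the counts were 114, 95 and 169 in KO and 64, 97 and 74 in WT. In CPM the sum was 1.94, 1.73 and 2.87 in KO and 1.01, 1.62 and 1.18 in WT, so that the groups no longer overlapped. It averaged 2.18 ± 0.61 CPM in KO and 1.27 ± 0.31 CPM in WT (SD, n = 3 each). The difference then lay just short of the threshold (edgeR log2 fold change 0.78, SE 0.31, adjusted p = 0.0505). The sum was formed after the values had been seen. The level of Igf2 was low in both genotypes by either count.

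**Figure D4:**
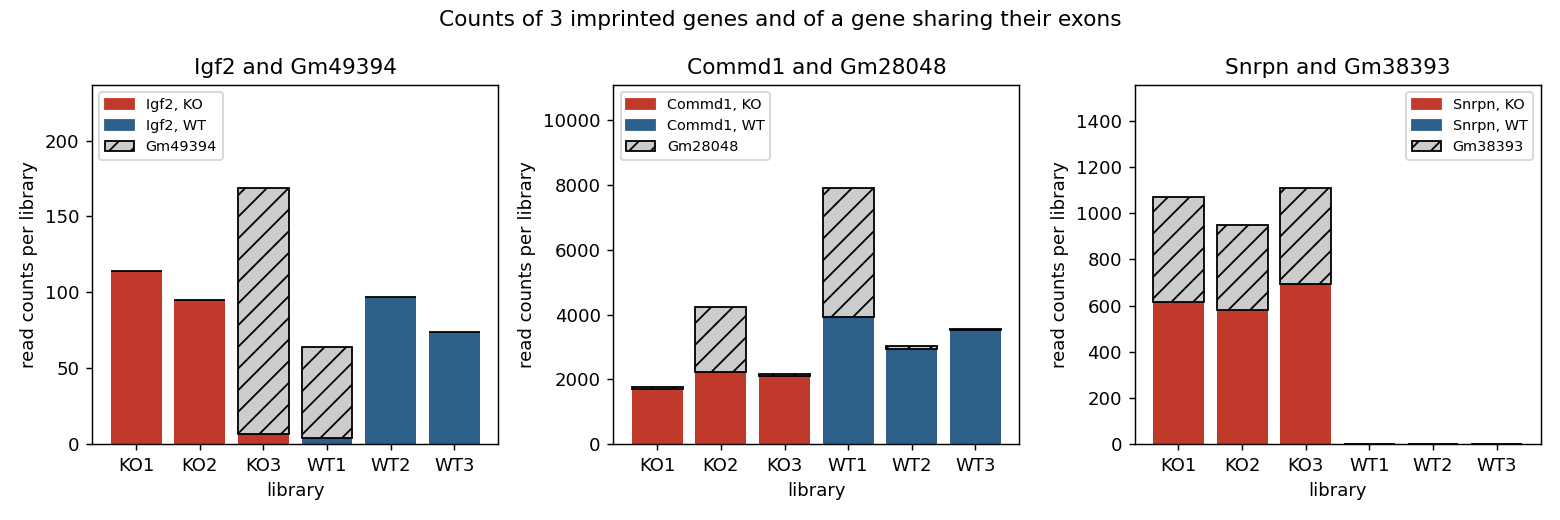
Read counts per library of Igf2, Commd1 and Snrpn (solid; red in KO, blue in WT) with the counts of a same-strand gene that shares their exons stacked on top (hatched), with KO libraries left of WT libraries. For Igf2 the hatched part makes up most of the bar in KO replicate 3 and WT replicate 1, where Igf2 itself had 7 and 4 counts.

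Commd1, which hosts Zrsr1 and regulates copper transport and NF-kB, was at 35.0 ± 5.82 CPM in KO and 55.8 ± 6.87 CPM in WT (SD, n = 3 each; edgeR adjusted p = 0.00261). Gm28048 shares exons with it and had 74, 1997 and 79 counts in KO and 3979, 107 and 16 in WT. With these added Commd1 had 1772, 4227 and 2178 counts in KO and 7921, 3031 and 3553 in WT, or 48.0 ± 25.2 CPM in KO and 77.5 ± 41.7 CPM in WT. The change kept its size (edgeR log2 fold change -0.69, SE 0.54, against -0.67, SE 0.14 for Commd1 alone), but the spread grew and the call was lost (adjusted p = 0.311).

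The Kcnq1 domain of chromosome 7 was mixed. Among its maternal genes Phlda2, which restrains placental growth, was at 0, 0.0727 and 0 CPM in KO and at 0.681, 1.0 and 0.890 CPM in WT, or 4 counts in KO and 159 in WT. It was lower in KO without overlap (33.7-fold in the fit, edgeR log2 fold change -5.07, SE 0.94, adjusted p = 0.00143). All 4 KO counts were in replicate 2, and without it the log2 fold change was -8.70, so the fitted size rests on that library. Cdkn1c, the cell cycle inhibitor p57, was at 0.409, 0.509 and 0.356 CPM in KO and at 0.602, 0.850 and 0.842 CPM in WT. Its values did not overlap, but the difference missed the threshold (edgeR log2 fold change -0.85, SE 0.38, adjusted p = 0.0812). Slc22a18, an organic cation transporter, was at 1.01 ± 0.48 CPM in KO and 0.793 ± 0.265 CPM in WT and did not pass either (edgeR adjusted p = 0.519).

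Of the genes of this domain that are imprinted mainly in placenta, Cd81 and Osbpl5 rose and Nap1l4 fell. Cd81, a tetraspanin, was at 390.0, 376 and 375 CPM in KO and at 163, 179 and 163 CPM in WT, without overlap (2.26-fold, edgeR log2 fold change 1.18, SE 0.05, adjusted p = 1.6e-07). Osbpl5, an oxysterol-binding protein gene, was at 50.3, 53.2 and 52.8 CPM in KO and at 23.4, 26.8 and 22.2 CPM in WT (2.16-fold, edgeR log2 fold change 1.11, SE 0.09, adjusted p = 6.02e-06). Nap1l4, a histone chaperone that lies between Phlda2 and Osbpl5, was lower, at 95.2 ± 3.24 CPM in KO and 139 ± 5.28 CPM in WT (edgeR adjusted p = 2.14e-05). Neighbours in this domain thus went in opposite directions.

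Tssc4, a factor of small nuclear ribonucleoprotein assembly, was at 9.32, 8.05 and 22.0 CPM in KO and at 9.65, 9.07 and 19 CPM in WT. Replicate 3 was the high library in both genotypes, the groups overlapped and the test was not passed (edgeR adjusted p = 0.922). Ascl2, a transcription factor of trophoblast, had 23 counts in KO and 10 in WT and did not pass the filter.

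The remaining genes imprinted in some tissues or isoforms differed by less than 2-fold. Gnas, which encodes the stimulatory G protein subunit and several isoforms of opposite imprinting, was at 774, 799 and 752 CPM in KO and at 512, 502 and 520.0 CPM in WT. The groups did not overlap (1.52-fold, edgeR log2 fold change 0.60, SE 0.04, adjusted p = 1.83e-06), but the call was lost from the deposited FPKM (limma adjusted p = 0.0733). H13, a signal peptide peptidase, was at 292 ± 21.1 CPM in KO and 157 ± 5.81 CPM in WT (edgeR adjusted p = 2.59e-06). Blcap was at 57.7 ± 1.22 CPM in KO and 34.0 ± 0.99 CPM in WT (edgeR adjusted p = 6.21e-06). Nnat, the paternally expressed proteolipid gene inside an intron of Blcap, was at 2.94 ± 0.21 CPM in KO and 2.33 ± 1.11 CPM in WT and missed the threshold (edgeR adjusted p = 0.422). Inpp5f, a phosphoinositide phosphatase, was at 34.9 ± 1.07 CPM in KO and 46.2 ± 2.42 CPM in WT (edgeR adjusted p = 0.00078). The paternal genes Zdbf2, with 0 counts in KO and 10 in WT, and Nap1l5, with 5 in KO and 14 in WT, did not pass the filter.

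Compared per length, in the FPKM deposited by the authors, Gnas was the highest of the 45 genes in both genotypes, at 303 ± 36.5 FPKM in KO and 231 ± 60.5 FPKM in WT (SD, n = 3 each). Cd81 followed with 215 ± 4.07 FPKM in KO and 106 ± 6.92 FPKM in WT. In KO, Impact at 80.5 ± 0.81 FPKM and H13 at 76.8 ± 11.3 FPKM came next and lay within their spread of each other. In WT the third place was held by Nap1l4, at 61.5 ± 1.23 FPKM, ahead of H13 at 48.7 ± 5.49 FPKM and Impact at 36.5 ± 1.28 FPKM. Grb10 reached 26.5 ± 1.03 FPKM in KO and 0.0126 ± 0.0115 FPKM in WT. Among the genes with 0 counts in WT, Sgce was the highest in KO, and Ndn and Snrpn followed at 5.02 ± 0.38 and 4.74 ± 0.32 FPKM, within their spread of each other.

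Further imprinted genes outside the list went in both directions. Of 34 listed, 33 were matched and 19 tested, 8 of them higher and 8 lower in KO, beside 35.1% and 34.2% of all tested genes. Imprinting of many of these is reported only in placenta or brain. Ano1, a chloride channel, was lower, at 2.81 ± 0.34 CPM in KO and 67.3 ± 2.38 CPM in WT (SD, n = 3 each; edgeR adjusted p = 9.27e-09). Phactr2, a regulator of actin and protein phosphatase, was at 36.7 ± 0.47 CPM in KO, against 0 counts in WT, at least 2274-fold higher. Smoc1, a matrix protein, was 21.2-fold higher and Jade1, a chromatin factor, 3.39-fold lower in KO (edgeR adjusted p = 1.1e-06 and 7.58e-07). In the Dlk1-Dio3 domain, Dlk1 was at 127 to 133 CPM in KO and Meg3 at 792 to 819.6 CPM in KO, and both had 0 counts in WT.

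Genes that keep or remove imprints were measured at the same time. Of 25 listed, 24 were tested, 7 of them higher and 13 lower in KO, beside 35.1% and 34.2% of all tested genes. Hells, a remodelling factor needed for DNA methylation, was at 29.8 ± 3.65 CPM in KO and 443 ± 31.0 CPM in WT (SD, n = 3 each; 14.9-fold lower, edgeR adjusted p = 2.48e-08). Uhrf1, which brings the maintenance methyltransferase to newly made DNA, was 8.95-fold lower (edgeR adjusted p = 8e-07). Dnmt1, that methyltransferase, was at 119 ± 8.03 CPM in KO and 326 ± 3.62 CPM in WT (2.73-fold lower, edgeR adjusted p = 9.08e-08). Smchd1, a chromatin protein that represses some imprinted clusters, was 1.98-fold lower (edgeR adjusted p = 2.28e-07). Zfp57, named after its values were seen, was at 39.3 ± 6.26 CPM in KO and 36.8 ± 8.43 CPM in WT and missed the threshold (edgeR adjusted p = 0.666). Tet1, an enzyme that oxidises methylated cytosine and also chosen after its values were seen, was higher, at 13.7 ± 1.66 CPM in KO and 1.43 ± 0.745 CPM in WT (edgeR adjusted p = 0.000285). Dppa3 had 0 counts in all libraries. Hells, Uhrf1 and Dnmt1 are also known as genes of dividing cells, and their part in the levels of the imprinted genes was not tested.

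**Figure D5:**
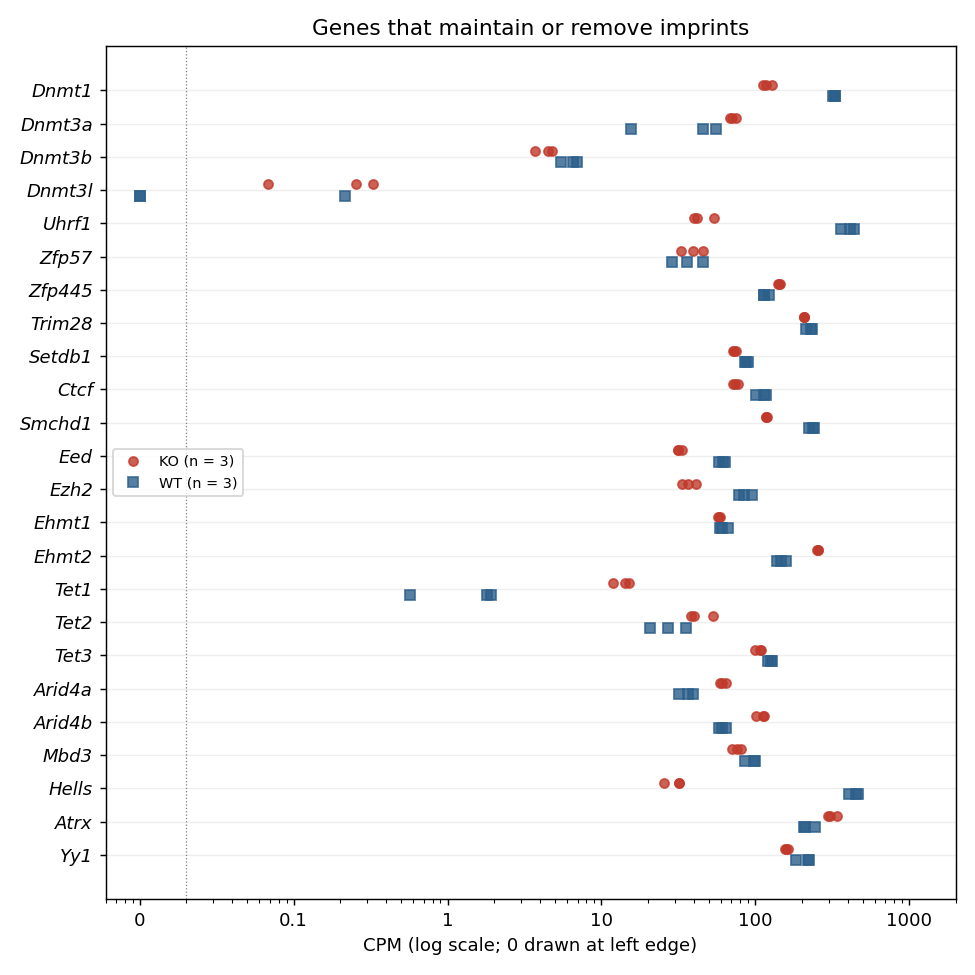
Level in CPM on a log scale of the 24 counted genes that maintain or remove imprints, with red circles for KO libraries above blue squares for WT libraries (n = 3 each) and 0 drawn at the left edge. Hells, Uhrf1 and Dnmt1 lie lower in KO than in WT and Tet1 higher, while the libraries of Zfp57 overlap.

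The products of Igf2, Igf2r and Grb10 act in a shared growth signalling route. Of 17 listed partners 15 were tested, 13 of them higher and 1 lower in KO, beside 35.1% and 34.2% of all tested genes. Igfbp4, a secreted IGF-binding protein, was at 2260.1 ± 48.5 CPM in KO and 559 ± 11.7 CPM in WT (SD, n = 3 each; 4.04-fold, edgeR adjusted p = 2.82e-09). Igf1r, the receptor that both IGF ligands activate, was at 222 ± 13.1 CPM in KO and 62.3 ± 3.32 CPM in WT (3.56-fold, edgeR adjusted p = 5.63e-08). The binding protein gene Igfbp6 was 28.7-fold higher and the kinase gene Akt1 2.21-fold higher (edgeR adjusted p = 6.17e-08 and 4.58e-08). The receptor Igf2r, the adaptor Grb10 and most of these partners were thus higher in the same libraries.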

How the data were processed

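The data were 6 RNA libraries, 3 KO and 3 WT, grouped and numbered by their titles. For each Ensembl gene the deposited table gives raw counts and FPKM, per the file headers. The FPKM were normalized by the authors and served for levels per length and for 2 alternative tests. Per the submitters' processing notes, the build was GRCm39 and the tools included HISAT2, SAMtools 1.3.1, edgeR and CASAVA 1.8. Which counter, strand setting and annotation were used is not given in the sources used here. Symbols, gene order and overlaps came from GENCODE M21 (55394 of 56393 genes matched, 98.23%) and promoter sequences from RefSeq, both on GRCm38.

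Counts were filtered with filterByExpr (18732 genes kept), scaled with TMM (factors 0.952 to 0.96 in KO, 1.04 to 1.06 in WT) and compared between KO and WT without covariates by edgeR 4.0.16 (R 4.3.3), with its robust quasi-likelihood test and a Benjamini-Hochberg adjusted p under 0.05. CPM are TMM-scaled. A gene at 0 in a group was bounded by 3 counts over that group, which covers counting error only, since PCR copies of a molecule may be counted apart. Libraries of the same genotype were further apart than counting noise (chi-square divided by its degrees of freedom, 22.0 to 34.1), and each is 1 sample. Alternatives used DESeq2 1.42.0, limma 3.58.1, a block for the replicate number, other scalings, thresholds and filters, and the omission of each library.

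The imprinted genes, the lists and the alternatives were chosen with earlier results of these data known. Imprinted genes were assigned to loci and alleles by hand. All 45 are named. Values per library are given for those called with a change of at least 2-fold and for Igf2, H19, Cdkn1c, Igf2r, Gnas and Grb10, and for some others where the text turns on them. For further imprinted genes, genes that maintain or remove imprints and growth signalling partners, the 4 of each with the smallest adjusted p are named. Other names in these lists, and the summing of overlapping genes, were chosen after their values were seen. Cell type markers were not named by adjusted p, and endothelial, leukocyte and pluripotent markers are not described.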

Additional observations from a re-analysis of the deposited data

How the results depend on the processing

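Of 36 tested imprinted genes, 28 kept their call and direction in every alternative run for them. Calls among the others were lost for Gnas and Sfmbt2 from FPKM, for Sfmbt2 without KO replicate 3 and for Commd1 after summing with Gm28048. Without each library in turn, 21 to 22 imprinted genes were called higher, 8 were called lower, and 12364 to 12765 of all genes were called.

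Asking for a change of at least 2-fold left 7757 genes called. It left 2 imprinted genes called lower, among them 1 paternal gene, and 2 genes of the third class called higher and 0 called lower. It also left 10 further imprinted genes, 5 genes that maintain or remove imprints and 9 growth signalling partners. An adjusted p under 0.01 left 1 paternal gene called lower. At least 1 CPM in 3 libraries left 1 paternal and 0 maternal genes called lower, since Mest and Phlda2 were then not tested. The same filter left 21 imprinted genes called higher, 13 of them paternal, since Plagl1 was not tested either.

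The log2 fold change changed sign only for genes that were not called. Without each library in turn it ranged from -0.24 to 0.061 for Ube3a, from -0.14 to 1.02 for Igf2, from -0.082 to 0.63 for Slc22a18 and from -0.53 to 0.49 for Tssc4. For Tssc4 it was -0.068 with total counts and -0.0025 with the replicate block. On log2 of FPKM plus 0.1 and plus 1 it was -0.080 and -0.069 for Tssc4 and -0.049 and -0.036 for Nnat. The cause of these turns was not tested.

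Libraries with the same number did not deviate together (correlation across genes -0.05, -0.01 and -0.03), so they share only a number. With the block 12233 genes were called, and 22 imprinted genes were higher and 8 lower. At this depth, genes with few counts, such as Usp29, Zim1, Asb4, Ppp1r9a, Zdbf2, Nap1l5 and Ascl2, allow no statement of change.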

Other observations

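Several genes that lie inside or beside the imprinted genes, chosen after their values were seen, had values of their own. Nespas, a paternally expressed antisense transcript of the Gnas domain, was at 0.886, 0.654 and 1.75 CPM in KO and had 0 counts in each WT library. Mcts2, a paternally expressed retrogene inside H13, was lower, at 7.61 ± 0.51 CPM in KO and 16.3 ± 1.53 CPM in WT (SD, n = 3 each; edgeR adjusted p = 4.69e-05), while H13 was higher in KO. Herc3, the host of Nap1l5, was at 6.33 ± 0.40 CPM in KO and 12.3 ± 1.3 CPM in WT. Casd1, the neighbour of Sgce on the side away from Peg10, was counted in both groups, at 30.3 ± 2.12 CPM in KO and 17.1 ± 0.50 CPM in WT (edgeR adjusted p = 3.75e-05). The 0 counts of WT thus stopped at Sgce on that side. R74862, antisense to Cd81 with shared exonic bases, was at 8.34 ± 0.75 CPM in KO and 2.07 ± 0.61 CPM in WT, and its reads may not be separable from those of Cd81.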
